A study of Mus musculus with 19 samples.

Results

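Fos, Fosb, Jun, Junb, Egr1, Ier2, Atf3, Dusp1, Dusp6 and Spry2, which are immediate early genes and genes of ERK feedback, were followed in crypts of the small intestine of 19 mice. They were chosen by name and matched by symbol to the Ensembl identifiers of the deposited gene tables, which gave 10 of 55487 genes, and all 10 passed the filter for low counts. RNA was sequenced from crypts of mice with the neurotensin gene (NT+/+) and mice without it (NT-/-), on the C57BL/6 strain, either fed ad libitum (AL) or fasted (Fast) for 48 hours with water. The groups held 5 NT+/+ AL, 4 NT-/- AL, 5 NT+/+ Fast and 5 NT-/- Fast mice of both sexes, with 1 library per mouse, and the methods of the study give an age of 10 to 16 weeks. The study describes its NT+/+ and NT-/- mice as carriers of an Lgr5-EGFP reporter allele, its methods also list colonies without it, and the labels of the sequenced mice do not name it for any group. Crypts had been released from opened, chopped intestine in cold buffer with EDTA, vortexed and strained before RNA was made, and every group shared this handling. By the methods of the study they came from the proximal part of the small intestine, without its distal end. The study places neurotensin mainly in the distal small intestine.

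Immediate early genes are transcribed within minutes of a stimulus, without new protein synthesis, and their messenger RNAs are short-lived. Many of them respond to the kinases ERK1 and ERK2, which lie at the end of the cascade from growth factor receptors through RAS, RAF and MEK. Fos, Fosb, Jun and Junb encode subunits of the transcription factor AP-1, Egr1 encodes a zinc finger transcription factor, Ier2 a small nuclear protein and Atf3 a stress-induced factor of the ATF/CREB family. Dusp1 and Dusp6 encode phosphatases that dephosphorylate MAP kinases, with Dusp6 acting mainly on ERK in the cytoplasm, and Spry2 encodes a Sprouty protein that restrains signaling from receptor tyrosine kinases to ERK. In the crypt, ERK signaling downstream of the EGF receptor is known for its part in the division of stem and progenitor cells. Tissue dissociation is known to induce several of these genes, and expression in the living tissue and induction during isolation cannot be told apart here.

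Total counts ranged from 9059418 to 35068669 per mouse (median, 18541770). Nts, which encodes neurotensin, lay between 4.98 and 8.59 CPM (read counts scaled to the TMM size of each library) in the 10 NT+/+ mice and between 0.144 and 0.792 CPM in the 9 NT-/- mice. NT+/+ Fast replicate 5 has a genotype label of NT-/- that disagrees with its title, was grouped by its title, and had 5.43 CPM of Nts. Of 10 epithelial crypt markers, including Epcam, Olfm4, Lyz1 and Mki67, none was at 0 in any mouse. The summed level of 10 markers of villus enterocytes in TPM, a level per transcript length, ranged from 1739 to 4761 in NT+/+ AL, 4863 to 12090 in NT+/+ Fast, 3091 to 5313 in NT-/- AL and 8030 to 13520 in NT-/- Fast, so the fed and fasted ranges did not overlap in either genotype. In bulk RNA, a change in the number of cells of a type and a change in RNA per cell cannot be told apart. Mice also shared a number in their file names whose meaning no label gives, and wherever a sex was given numbers 3 and 5 were males and numbers 1, 2 and 4 females, so a difference between the sexes cannot be told apart from one between these sets of numbers.

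In NT+/+ Fast replicate 3, all 10 genes were at the highest level of their group, with a mean deviation of 0.87 log2 CPM from the group means. Fos reached 92.0 CPM in this mouse and between 11.8 and 29.6 CPM in the other NT+/+ Fast mice. The reverse was seen in NT-/- Fast replicate 4, which lay below the group mean for all 10 genes (mean deviation, -0.53). Their total counts were 19773367, the highest of the NT+/+ Fast group, and 10067595, the second lowest of all mice. In the former the villus markers summed to 10550 TPM, within the 4863 to 12090 TPM of the other mice of its group, and the immune markers to 466.9 TPM, below the 555.1 to 756.5 TPM of the others. In the latter the villus markers summed to 12340 TPM, within the 8030 to 13520 TPM of the others, the crypt markers to 7872 TPM, near the lower end of the 7618 to 11130 TPM of the others, and the immune markers to 417.8 TPM, below the 484.2 to 844.6 TPM of the others. The part of these values in the results was not tested. For each of the 10 genes, the fasting log2 fold change in NT+/+ mice or its adjusted p is given with and without replicate 3. So are the counts of the related pathway lists in that comparison, and part of the genotype results. Values of single genes of those lists, and of the marker lists, are given with this mouse only.

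Promoters are shown for Fos, Junb, Dusp1 and Dusp6, as examples with and without the short element known to bind CREB and ATF factors. Fos and Dusp1 passed in no fasting or genotype comparison given below with all mice. Spry2, which passed with fasting in both genotypes, is not shown. Windows of 300 bases, from 250 before to 50 after the start site, were taken from RefSeq (GRCm38.p6) for 8 of the 10 genes, and those of Egr1 and Ier2 were not analysed here. The core TGACG, searched on both strands, was present in 5 of 8 windows (Fos, Fosb, Junb, Atf3 and Dusp1) and in 20.8% of all 32851 windows of this length. The full palindrome TGACGTCA, which contains the core on both strands, was present in 1 of the 8 (Dusp1) and in 1.79% of all windows. An AP-1 site (TGANTCA) and a CArG box, the element of serum response factor, were found in 0 of 8 windows, against 7.81% and 1.63% of all windows, and the ETS core CCGGAA was found in Spry2 alone, against 14.9%. The 200 bases before the start site are given for Fos (chr12:85473690-85473889, plus strand), Junb (chr8:84978749-84978948, minus strand), Dusp1 (chr17:26508473-26508672, minus strand) and Dusp6 (chr10:99263031-99263230, plus strand), with TGACG, its reverse complement and TGACGTCA in capitals.
Fos: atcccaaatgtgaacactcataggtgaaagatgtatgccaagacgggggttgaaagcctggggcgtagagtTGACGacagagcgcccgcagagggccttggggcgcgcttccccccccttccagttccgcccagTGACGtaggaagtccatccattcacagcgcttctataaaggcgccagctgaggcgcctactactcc
Junb: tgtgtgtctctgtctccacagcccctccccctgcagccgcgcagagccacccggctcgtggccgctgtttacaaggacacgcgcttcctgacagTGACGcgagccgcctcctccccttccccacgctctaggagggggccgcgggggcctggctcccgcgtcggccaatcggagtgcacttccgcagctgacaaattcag
Dusp1: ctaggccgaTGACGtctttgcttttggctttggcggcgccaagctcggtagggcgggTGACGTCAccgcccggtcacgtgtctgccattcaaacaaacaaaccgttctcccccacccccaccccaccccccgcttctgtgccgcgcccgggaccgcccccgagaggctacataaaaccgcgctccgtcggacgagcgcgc
Dusp6: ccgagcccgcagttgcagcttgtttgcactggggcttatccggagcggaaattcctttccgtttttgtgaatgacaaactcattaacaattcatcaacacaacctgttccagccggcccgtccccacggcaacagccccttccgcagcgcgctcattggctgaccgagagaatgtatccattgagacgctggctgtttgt
In Fos the cores began 129 and 66 bases before the start site, in Junb 106 bases before it, and in Dusp1 the palindrome began 143 bases and a further core 191 bases before it. The Dusp6 window had none of these letters. A match is a string of letters and no measure of binding. Sites outside the windows or with other letters were not searched for, so 0 of 8 windows does not mean that these genes lack such sites.

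Compared per transcript length, Ier2 was the most abundant of the 10 (median, 25.7 TPM over the 19 mice), followed by Fos (19.3 TPM) and Junb (18.9 TPM). Dusp6 (12.2 TPM), Jun (10.7 TPM) and Spry2 (7.33 TPM) were intermediate, and Atf3 (3.67 TPM), Egr1 (3.15 TPM), Dusp1 (1.63 TPM) and Fosb (1.05 TPM) were low. Every pair of neighbors in this order overlapped in range over the 19 mice, and for the first 3 Ier2 ranged from 21.8 to 34.3 TPM, Fos from 7.82 to 71.8 TPM and Junb from 12.8 to 34.0 TPM. Spread between mice also differed among the genes. The estimated biological coefficient of variation within groups was 67.2% for Fosb, above that of 98.4% of the genes tested, and 43.2% for Fos, 38.5% for Atf3, 37.9% for Dusp1 and 30.4% for Egr1, compared with a median of 15.9% over all genes. It was lowest for Ier2 (12%) and Spry2 (10.8%), and Jun (20.1%), Dusp6 (20.1%) and Junb (18.6%) lay close to the median gene. Counts behind these values ranged from 14 to 187 per mouse for Fosb, 17 to 105 for Dusp1 and 161 to 1788 for Fos.

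**Figure D1:**
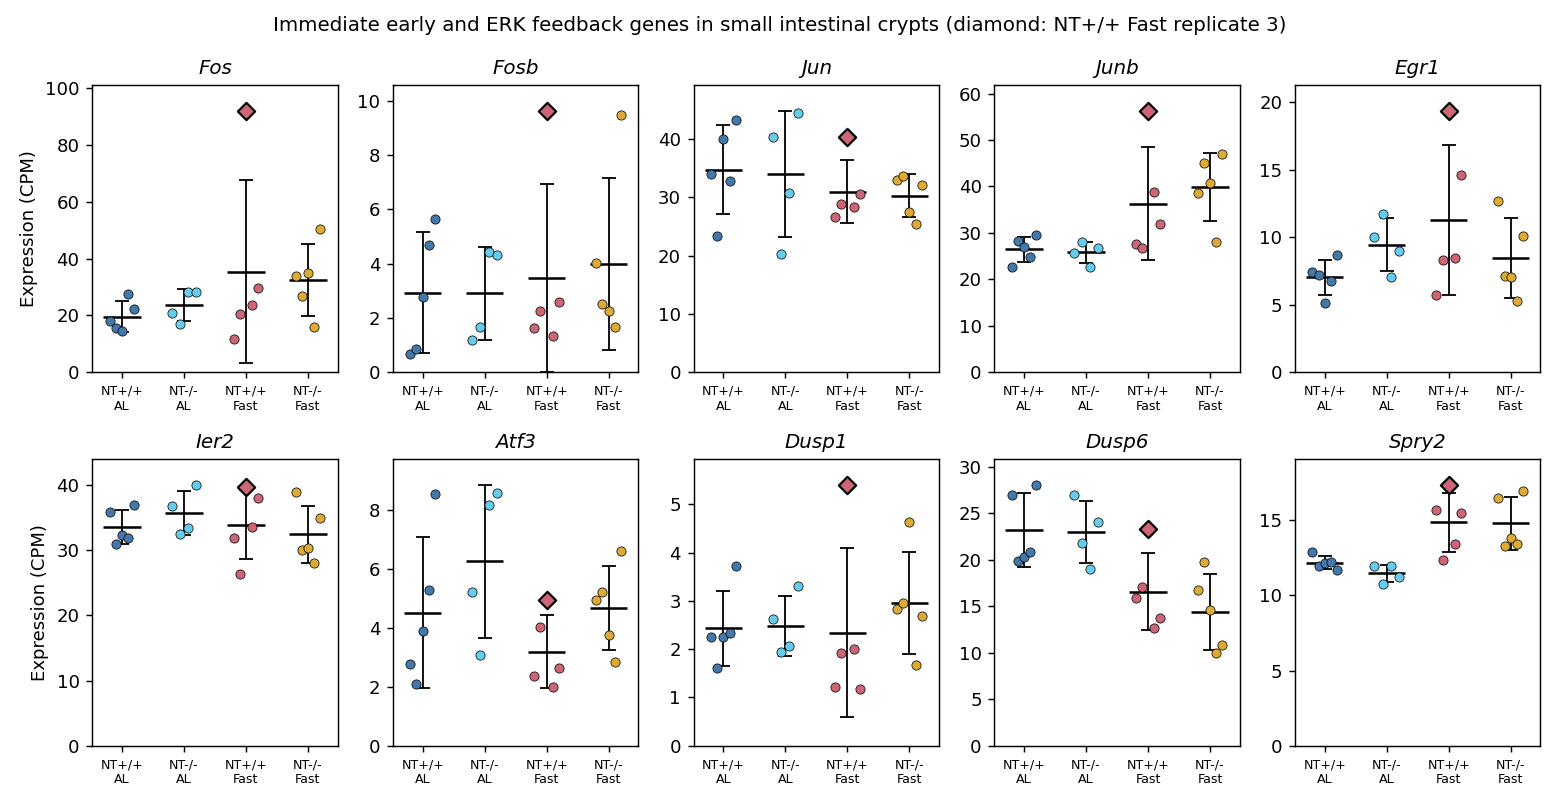
Expression (CPM) of each gene by group, 1 point per mouse with the mean (line) and SD (bar), and NT+/+ Fast replicate 3 drawn as a diamond. The diamond is the highest NT+/+ Fast point in all 10 panels, and the NT-/- Fast points of Junb and Spry2 all lie above the NT-/- AL points.

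The first comparison asked how a fast changed these genes in crypts with neurotensin. In NT+/+ mice Spry2 was 1.22-fold higher after fasting and was the only gene of the 10 to pass an adjusted p of 0.05 (edgeR's quasi-likelihood test, Benjamini-Hochberg adjustment over all 17875 genes tested). That is 1 of 10, whereas 21.6% of all genes tested passed in this comparison (11.2% higher and 10.4% lower). At an unadjusted p under 0.05 the counts were 5 of the 10 (Fos, Junb, Egr1, Dusp6 and Spry2) and 34.1% of all genes, and fed and fasted NT+/+ mice did not overlap for 0 of the 10 and 14.6% of all genes. Without NT+/+ Fast replicate 3, Spry2 no longer passed (log2 fold change 0.23, adjusted p = 0.122) and Dusp6 did, beside 19% of all genes. Mice that shared a number in the file names deviated together, and with this number as a block in the fit 3 of 10 passed in NT+/+ mice, namely Junb, Dusp6 and Spry2, beside 30.7% of all genes.

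In mice without neurotensin the same contrast gave Junb 1.55-fold higher, Spry2 1.29-fold higher and Dusp6 lower, at 0.624 of the fed level. These 3 of 10 stand beside 25.2% of all genes tested that passed in NT-/- mice (12.5% higher and 12.6% lower), and the same 3 reached an unadjusted p under 0.05 beside 36.5% of all genes. With the number as a block the same 3 genes passed, beside 31.7% of all genes. The median log2 fold change of the 10 genes was 0.14 in NT+/+ and 0.06 in NT-/- mice, beside -0.01 and -0.02 over all genes tested. Without NT+/+ Fast replicate 3 the median in NT+/+ mice was -0.16.

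**Figure D2:**
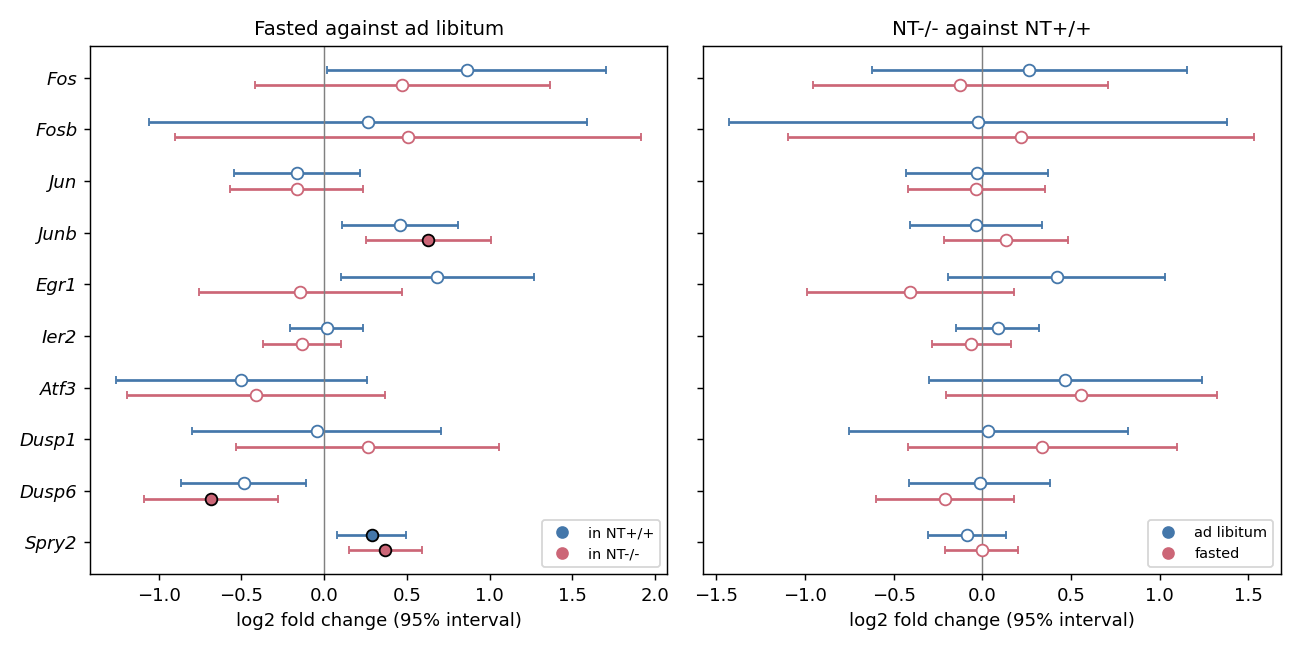
log2 fold changes of the 10 genes with 95% intervals, fasted against ad libitum in each genotype (left) and NT-/- against NT+/+ in each diet (right), with filled points where the adjusted p is under 0.05. The filled points are Spry2 in both genotypes and Junb and Dusp6 in NT-/- mice, and no point on the right is filled.

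Among the AP-1 genes, Junb was the one that passed, with a rise. It passed in NT-/- mice without a block and in both genotypes with the file-name number as a block. Junb (ENSMUSG00000052837, GRCm38 chr8:84974484-84978718, minus strand) was at 25.8, 27.9, 22.7 and 26.8 CPM in the NT-/- AL mice and at 38.7, 45.0, 40.6, 28.0 and 46.9 CPM in the NT-/- Fast mice. All 5 fasted mice lay above all 4 fed mice, although the lowest of them, replicate 4, exceeded the highest fed mouse by little. Groups did not overlap for 2 of the 10 genes, Junb and Spry2, and for 21.3% of all genes in this comparison. The log2 fold change was 0.63 (SE 0.18, adjusted p = 0.0144), and without NT-/- AL replicate 3 it was 0.57 with an adjusted p of 0.0511. NT+/+ AL mice were at 22.6, 28.2, 27.0, 24.9 and 29.4 CPM and NT+/+ Fast mice at 27.6, 26.7, 56.2, 38.9 and 31.9 CPM. Here 3 of 5 fasted mice lay above all fed mice, and the log2 fold change of 0.46 (SE 0.17) had an adjusted p of 0.0579, or 0.041 with the number as a block and 0.222 without replicate 3. Junb overlaps Prdx2 on the opposite strand, a gene with a median of 1742 counts per mouse, and the strand setting of the counting is not given in the sources used here, so its counts are uncertain to that extent.

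Fos, the partner of the JUN proteins in AP-1, varied most in absolute level. Fos (ENSMUSG00000021250, chr12:85473890-85477273, plus strand) was at 17.8, 15.6, 14.5, 27.7 and 22.1 CPM in NT+/+ AL mice and at 11.8, 20.3, 92.0, 23.5 and 29.6 CPM in NT+/+ Fast mice. The groups overlapped, and the coefficient of variation was 27.6% fed and 91.1% fasted. The log2 fold change was 0.86 (SE 0.40, adjusted p = 0.138), and it was 0.12 (SE 0.28, adjusted p = 0.814) without replicate 3 and 1.08 (adjusted p = 0.0432) without NT+/+ Fast replicate 1, the mouse with the lowest Fos. In NT-/- mice Fos was at 20.9, 16.9, 28.2 and 28.1 CPM fed and 33.9, 26.7, 35.0, 15.9 and 50.4 CPM fasted. There 3 of 5 fasted mice lay above and 1 lay below all fed mice, with a log2 fold change of 0.47 (SE 0.43, adjusted p = 0.464).

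Fosb, a relative of Fos, was scattered in every group. It ranged from 0.672 to 5.66 CPM in NT+/+ AL, 1.18 to 4.43 in NT-/- AL, 1.31 to 9.62 in NT+/+ Fast and 1.68 to 9.46 in NT-/- Fast. Its log2 fold change with fasting was 0.27 (SE 0.63) in NT+/+ and 0.51 (SE 0.67) in NT-/- mice, with 95% intervals of -1.06 to 1.59 and -0.90 to 1.91, so changes of this size were not detectable at this spread. Without NT+/+ Fast replicate 3 the Fosb value in NT+/+ mice changed sign, to -0.59 (SE 0.61, adjusted p = 0.557). Jun, the main partner of Fos, was at 34.7 ± 7.63 CPM (SD, n = 5) in NT+/+ AL, 31.0 ± 5.43 (n = 5) in NT+/+ Fast, 34.0 ± 10.9 (n = 4) in NT-/- AL and 30.3 ± 3.65 (n = 5) in NT-/- Fast. Its fasted mice lay inside the fed range in both genotypes (log2 fold change -0.16, SE 0.18, and -0.17, SE 0.19), and without replicate 3 the NT+/+ value for Jun was -0.28 (SE 0.19, adjusted p = 0.332). Jun is overlapped by the antisense gene Junos, which had a median of 15 counts per mouse against 605 for Jun.

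Egr1 gave values of opposite sign in the genotypes. NT+/+ AL mice were at 7.39, 7.21, 5.09, 6.75 and 8.70 CPM and NT+/+ Fast mice at 5.74, 8.32, 19.3, 8.45 and 14.6 CPM. The high values came from fasted replicates 3 and 5, and replicate 5 is the mouse with disagreeing labels. Its log2 fold change of 0.68 (SE 0.28) had an adjusted p of 0.087, which was 0.309 without replicate 3 (log2 fold change 0.40) and 0.0247 without replicate 1 (0.85). In NT-/- mice Egr1 was at 9.97, 11.7, 7.03 and 9.0 CPM fed and 12.7, 7.15, 7.06, 5.23 and 10.1 CPM fasted, with a log2 fold change of -0.14 (SE 0.29, adjusted p = 0.774). The difference between the genotypes in the response to fasting was -0.83 (95% interval, -1.67 to 0.02, unadjusted p = 0.0544, adjusted p = 1). Without NT+/+ Fast replicate 3 this difference was -0.54 (SE 0.36, edgeR's unadjusted p = 0.152).

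Ier2 and Atf3 did not pass in either genotype. Ier2 was the least variable of the transcription-related genes, at 33.6 ± 2.65 CPM (n = 5) in NT+/+ AL, 33.9 ± 5.28 (n = 5) in NT+/+ Fast, 35.7 ± 3.42 (n = 4) in NT-/- AL and 32.4 ± 4.38 (n = 5) in NT-/- Fast. Its log2 fold change with fasting was 0.02 (95% interval, -0.21 to 0.24) in NT+/+ and -0.13 (-0.37 to 0.10) in NT-/- mice, and without replicate 3 the NT+/+ value was -0.05 (SE 0.11). Atf3 ranged from 2.09 to 8.56 CPM in NT+/+ AL and 2.00 to 4.94 in NT+/+ Fast, and from 3.08 to 8.58 in NT-/- AL and 2.86 to 6.60 in NT-/- Fast. Both fasted ranges overlapped the fed ones, and the log2 fold changes were -0.50 (SE 0.36, adjusted p = 0.357) and -0.41 (SE 0.37, adjusted p = 0.469). For Atf3 the NT+/+ value without replicate 3 was -0.72 (SE 0.38, adjusted p = 0.208).

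Of the feedback genes, Dusp6, the ERK phosphatase, fell with fasting. It passed in NT-/- mice without a block and in both genotypes with the file-name number as a block. Dusp6 (ENSMUSG00000019960, chr10:99263231-99267489, plus strand) was at 26.9, 21.9, 19.02 and 24.1 CPM in NT-/- AL mice and at 16.8, 19.7, 14.6, 9.96 and 10.8 CPM in NT-/- Fast mice. All fasted mice except replicate 2 lay below all fed mice, and the log2 fold change was -0.68 (SE 0.19, adjusted p = 0.0139), or -0.59 with an adjusted p of 0.0518 without NT-/- AL replicate 1. NT+/+ AL mice were at 27.0, 19.9, 20.3, 20.8 and 28.1 CPM, and NT+/+ Fast mice at 15.9, 17.1, 23.3, 12.7 and 13.8 CPM. In NT+/+ mice, too, 4 of 5 fasted mice lay below all fed mice, the exception being replicate 3. The log2 fold change of -0.49 (SE 0.18) had an adjusted p of 0.0628, with 0.024 under the number as a block (log2 fold change -0.51) and 0.0152 without replicate 3 (-0.64).

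Spry2, the receptor signaling inhibitor, rose with fasting in both genotypes, less firmly in NT+/+ mice. It (ENSMUSG00000022114, chr14:105891947-105896819, minus strand) was at 12.9, 11.9, 12.2, 12.2 and 11.7 CPM in NT+/+ AL mice and at 15.6, 12.3, 17.3, 13.4 and 15.4 CPM in NT+/+ Fast mice. In this genotype 4 of 5 fasted mice lay above all fed mice, and the log2 fold change was 0.29 (SE 0.10, adjusted p = 0.0433, or 0.0207 with the number as a block). This call held in 14 of 29 alternatives and was lost without any single fed mouse, without NT+/+ Fast replicates 1, 3 or 5, and with only the compared groups in the fit (adjusted p = 0.0606). In NT-/- mice Spry2 was at 11.9, 10.8, 11.9 and 11.2 CPM fed and 16.4, 13.3, 13.8, 13.4 and 16.9 CPM fasted. The groups did not overlap, and the log2 fold change was 0.37 (SE 0.11, adjusted p = 0.0145). The rise was small, and it was seen against fed groups with a coefficient of variation of 3.59% and 4.95%.

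Dusp1, the nuclear MAP kinase phosphatase, was near the lower end of detection. It ranged from 1.60 to 3.72 CPM in NT+/+ AL, 1.18 to 5.40 in NT+/+ Fast, 1.95 to 3.30 in NT-/- AL and 1.68 to 4.63 in NT-/- Fast. The log2 fold change was -0.04 (95% interval, -0.80 to 0.71) in NT+/+ and 0.26 (-0.53 to 1.06) in NT-/- mice, and without NT+/+ Fast replicate 3 it was -0.63 in NT+/+ mice with an adjusted p of 0.146. Dusp1 spans part of Ergic1 on the opposite strand, which had a median of 1926 counts per mouse against 43 for Dusp1, and with the strand setting not given the Dusp1 counts are uncertain.

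The second comparison asked whether the loss of neurotensin changed these genes, and 0 of 10 passed in either diet. In each diet 0.00559% of all genes tested passed, which is Nts alone, and 0 of the 10 reached an unadjusted p under 0.05, against 1.67% of all genes in fed and 9.14% in fasted mice. In fed mice the log2 fold changes ran from -0.09 for Spry2 (95% interval, -0.30 to 0.13) to 0.47 for Atf3 (-0.30 to 1.24). Fos was at 0.26 (-0.62 to 1.15) and Dusp6 at -0.01 (-0.41 to 0.38). In fasted mice they ran from -0.41 for Egr1 (-0.99 to 0.18) to 0.56 for Atf3 (-0.21 to 1.32). Without NT+/+ Fast replicate 3 they ran from -0.12 for Egr1 to 1.07 for Fosb, Fos changed from -0.12 to 0.62 (SE 0.29) and Dusp1 from 0.34 to 0.92 (SE 0.29), and the median of the 10 from -0.02 to 0.22. In that fit 3 of the 10 (Dusp1, Junb and Fos) and 11.1% of all genes reached an unadjusted p under 0.05. After adjustment 0 of the 10 passed, with edgeR adjusted p-values of 0.273, 0.339 and 0.438 for these genes. With all mice, Spry2 was the best determined, at 0.00 with an interval of -0.21 to 0.20, and Fosb the least, at 0.22 with an interval of -1.10 to 1.53. DESeq2 also gave 0 of 10 in each diet, beside 0.0168% of all genes in fed and 0.548% in fasted mice.

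The genotypes were also compared in their response to fasting. No gene of the 10 and 0% of all genes tested passed, and 2.71% of all genes but 0 of the 10 reached an unadjusted p under 0.05. That count was 1 of 10 in 12 of 28 alternatives, beside 1.78% to 4.76% of all genes in those 12. Among them were Dusp1 without NT+/+ Fast replicate 3 (difference 0.89, SE 0.40, unadjusted p = 0.0394, adjusted p = 1) and Egr1 with the block by title number (-0.92, unadjusted p = 0.0411). For the genes that passed in NT-/- mice, the difference between the responses was 0.17 for Junb (95% interval, -0.34 to 0.68), -0.19 for Dusp6 (-0.75 to 0.36) and 0.08 for Spry2 (-0.22 to 0.38). Without NT+/+ Fast replicate 3 it was 0.39 for Junb (SE 0.19, edgeR's unadjusted p = 0.0554), -0.04 for Dusp6 (SE 0.25) and 0.14 for Spry2 (SE 0.14). Their passing in NT-/- mice and, for Junb and Dusp6 without a block, not in NT+/+ mice is thus no measured difference between the genotypes. The fasting and genotype comparisons share groups of mice and are not independent of each other.

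Within groups, the deviations of the 10 genes were compared from mouse to mouse. After each gene was centered on its group mean, Pearson correlations over the 19 mice were above 0 for 45 of 45 pairs (range, 0.14 to 0.86, median 0.50). Fosb and Atf3 were the closest pair (r = 0.86, Spearman's rho 0.86), with 0.85 when the 2 mice with the largest deviation of Fosb were left out. For each pair the 2 mice left out were those farthest from the group mean for the gene listed first, so these values depend on the order of the list. With them left out, 42 of 45 stayed above 0 (median, 0.43), Dusp1 and Spry2 were at -0.27, Junb was at -0.03 with Dusp6 and -0.0033 with Spry2, and Fos and Dusp1 went from 0.74 to 0.45. Fos and Fosb followed each other at 0.73 and Jun and Atf3 at 0.75. These values come from shared libraries and shared handling, are descriptions, and carry no test. By the number in the file names, Fosb deviated by -0.73 in mice with number 1, 0.56 with number 3 and 0.90 with number 5 (unadjusted p = 0.0386, adjusted p = 0.112, with group in the fit), and Fos by 0.52 and 0.34 with numbers 3 and 5 (adjusted p = 0.196). Ier2 (unadjusted p = 0.0181) and Dusp1 (unadjusted p = 0.0427) had the other values under 0.05, and 0 of 10 passed after adjustment, whereas 15.3% of all genes did and 38.7% reached an unadjusted p under 0.05. The means of Fosb and Fos for number 3 include NT+/+ Fast replicate 3, which deviated by 1.83 and 1.75. The other mice with number 3 deviated by 0.35 (NT+/+ AL) and -0.51 (NT-/- Fast) for Fosb. For Fos these mice deviated by -0.38 and 0.21. The number's part, and that of sex, in the shared deviations was not tested apart.

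**Figure D3:**
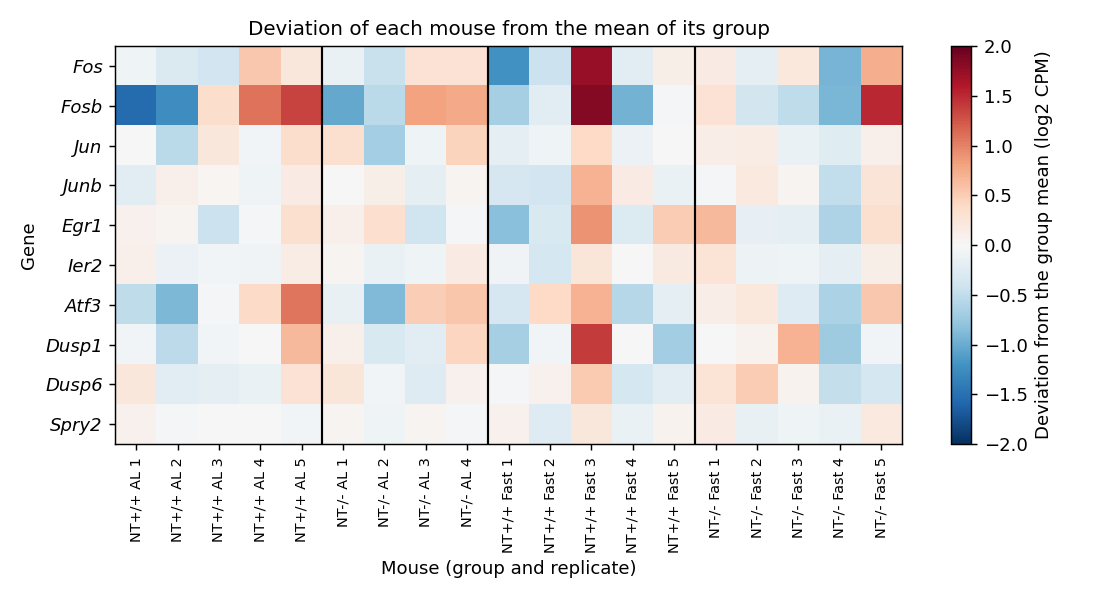
Deviation of each mouse from the mean of its group (log2 CPM, color scale) for the 10 genes, with mice ordered by group and replicate and black lines between groups. The column of NT+/+ Fast replicate 3 is red for all 10 genes and that of NT-/- Fast replicate 4 is blue for all 10.

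The genes whose deviations were most like those of Fos, leaving out the 10, were Hbegf (r = 0.89), the noncoding Gm43672 (r = 0.88), Epha2 (r = 0.86), Zfp36 (r = 0.86) and Smad7 (r = 0.85) over 19 mice. Hbegf encodes an EGF receptor ligand and Zfp36 a protein that speeds the decay of AU-rich messenger RNAs. With the 2 mice of largest Fos deviation left out the correlation was 0.72 for Hbegf, 0.72 for Epha2, 0.70 for Smad7, 0.565 for Zfp36 and 0.84 for Gm43672, which lies 510 bases from Tbl1xr1 on the opposite strand. Most like Dusp6 were Lmtk2 (r = 0.82), B4galt1 (r = 0.82), F11r (r = 0.81), Bcl10 (r = 0.79) and Sema4b (r = 0.77). No gene was on both lists of 5.

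Other immediate early genes, from a list of 32 of which 28 could be tested, gave 5 genes that rose and 0 that fell in each genotype. This share was below the 21.6% and 25.2% of all genes that passed. In NT+/+ mice these were Sgk1, Sik1, Gadd45b, Klf4 and Ier5, and in NT-/- mice Sgk1, Klf4, Rhob, Ier3 and Sik1. Sgk1, a kinase gene also known to be induced by glucocorticoids, stood apart with log2 fold changes of 3.04 (SE 0.45, adjusted p = 8.07e-05) and 3.16 (SE 0.49, adjusted p = 0.000104). Klf4, a factor of differentiated epithelium, rose by 0.46 (SE 0.14, adjusted p = 0.025) and 0.60 (SE 0.15, adjusted p = 0.00646). The median of the list was 0.28 in NT+/+ and 0.21 in NT-/- mice. With the number as a block 8 of the 28 passed in each genotype, beside 30.7% and 31.7% of all genes. Without NT+/+ Fast replicate 3 the count was 5 in NT+/+ and 9 in NT-/- mice, beside 19% and 26.9% of all genes.

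Other ERK output and feedback genes, with 20 tested, gave 1 gene that rose and 1 that fell in NT+/+ mice and 1 that rose and 3 that fell in NT-/- mice, again below the shares of all genes. Without NT+/+ Fast replicate 3 the counts were 2 and 5, beside 19% and 26.9% of all genes. With the number as a block they were 3 and 6, beside 30.7% and 31.7% of all genes. Ccnd1, the cyclin D1 gene, fell by 0.93 on the log2 scale in both (SE 0.18, adjusted p = 0.000906, and SE 0.19, adjusted p = 0.00113), from 184.1 ± 36.1 to 96.4 ± 20.2 CPM in NT+/+ mice (n = 5 each). Dusp5, a nuclear ERK phosphatase, rose by 0.45 (adjusted p = 0.00904) and 0.44 (adjusted p = 0.0128). Etv5 (log2 fold change -0.91, adjusted p = 0.00261) and Etv4 (-0.89, adjusted p = 0.049), ETS factors known as ERK outputs, fell in NT-/- mice, and in NT+/+ mice they were at -0.34 (adjusted p = 0.217) and 0.01 (adjusted p = 0.99). The difference between these responses was -0.57 (SE 0.28, edgeR's unadjusted p = 0.0527) for Etv5. For Etv4 it was -0.89 (SE 0.44, edgeR's unadjusted p = 0.0547), and neither passed after adjustment, so no difference between the genotypes was measured. In NT-/- mice, of these ERK phosphatases, Dusp5 thus rose and Dusp6 fell. The list's median was -0.07 and -0.21.

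Of 30 genes of the cascade itself, 5 rose and 2 fell in NT+/+ mice and 7 rose and 2 fell in NT-/- mice, close to the shares of all genes that passed. Gab1, an adaptor below receptor tyrosine kinases, rose by 0.62 (SE 0.06) and 0.65 (SE 0.06), and Map2k2, which encodes MEK2, by 0.43 (SE 0.08) and 0.48 (SE 0.09). Egfr, the EGF receptor, fell by 0.50 (SE 0.08) and 0.47 (SE 0.08) on the log2 scale. Braf rose by 0.44 in NT+/+ and 0.39 in NT-/- mice, and Creb1 fell by 0.62 and 0.60. Erbb3 rose by 0.36 and 0.75 and Rps6ka5 by 0.61 and 0.86, and each of these genes passed in both genotypes. With the number as a block the counts were 11 of 30 in NT+/+ and 13 of 30 in NT-/- mice, beside 30.7% and 31.7% of all genes. Without NT+/+ Fast replicate 3 the count in NT+/+ mice was 9 of 30, beside 19% of all genes. In the genotype comparisons and in the difference between fasting responses, 0 genes of these 3 lists passed. Of all genes tested 0.00559% passed in each diet and 0% in the difference. At an unadjusted p under 0.05, fasted genotypes gave 0 of 28 immediate early, 5 of 20 output and 8 of 30 cascade genes, beside 9.14% of all genes. Fed genotypes gave 0, 1 and 1, beside 1.67%, and the difference gave 0, 1 and 3, beside 2.71%.

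Heat shock genes and villus markers moved with fasting as well, and their part in the results above was not tested. Of 9 heat shock genes tested, 0 rose and 4 fell in each genotype (Hsp90aa1, Hsph1, Hspe1 and Hspa1b), beside 10.4% and 12.6% of all genes that fell. Hspa1b shares reads with its near-identical copy Hspa1a and is uncertain, and Hsp90aa1 was at a log2 fold change of -1.08 (SE 0.12) in NT+/+ and -0.88 (SE 0.13) in NT-/- mice. In NT+/+ mice 7 of the 9 passed with the number as a block, beside 30.7% of all genes. Without NT+/+ Fast replicate 3 the count there was 5, beside 19% of all genes. Of 10 villus markers, 8 rose in NT+/+ and 10 in NT-/- mice, beside 11.2% and 12.5% of all genes, with a median log2 fold change of 1.00 and 1.24. Crypt markers gave 1 higher and 2 lower in NT+/+ and 1 higher and 3 lower in NT-/- mice, and 0 of 8 immune and 0 of 8 stromal markers passed.

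**Figure D4:**
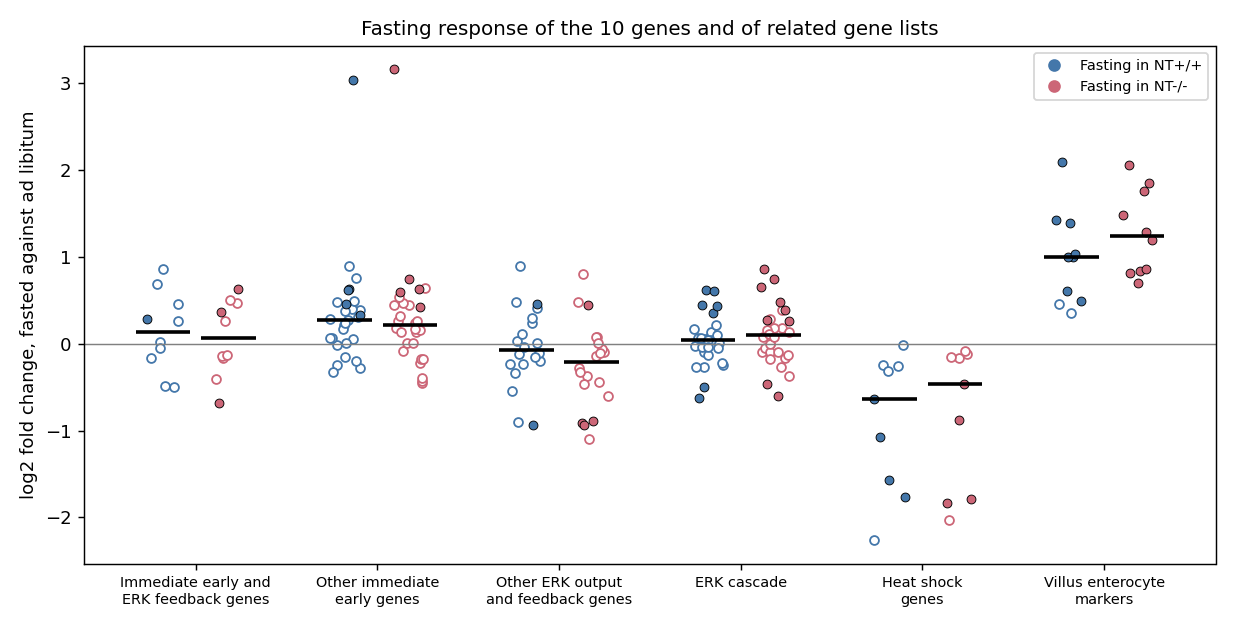
log2 fold changes with fasting for each tested gene of 6 lists, by genotype, with filled points at an adjusted p under 0.05 and a black line at the list's median. The 10 genes lie on both sides of 0 (medians, 0.14 and 0.06), the heat shock genes lie below it and the villus markers above it.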

How the data were processed

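Ribosomal RNA-depleted libraries were sequenced as single-end reads, trimmed with Trimmomatic 0.39 and mapped with RSEM to an Ensembl annotation of GRCm38 by the authors. For each mouse the authors deposited a gene table with the RSEM expected count, an estimate that is not normalized and divides reads shared between transcripts or genes, and with TPM, which the authors deposited as a level scaled to transcript length and library. The RSEM version and the strand setting are not given in the sources used here. Every column used belongs to 1 mouse.

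Expected counts were rounded to whole numbers and normalized with TMM in edgeR (version 4.0.16, R 4.3.3). The 17875 genes that passed filterByExpr were fitted with 1 coefficient for each of the 4 groups, as titles give them, and tested with edgeR's quasi-likelihood test at an adjusted p of 0.05 (Benjamini-Hochberg over all genes tested, 15 residual degrees of freedom). Each standard error was worked back from the log2 fold change and its F statistic, and gave the 95% interval. TPM was used for levels between genes, for marker sums and nowhere in a test. Deviations are log2 CPM (prior count 2) less the group mean. Gene positions are from the GENCODE annotation of GRCm38, promoters from RefSeq, and gene symbols matched 142 of the 143 symbols listed (Spry3 is not analysed here). The fit was tested on simulated data with 200 changed genes.

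The 10 genes, the pathway lists and the marker lists were chosen with earlier results of these data known. Named genes are the 10, at most 5 genes of each pathway list and comparison with the smallest p among those under the threshold, and the 5 genes most correlated with Fos and with Dusp6. Mice of the same number in the file names correlated in their deviations from the group means above 0.1 in every pair of each comparison (mean r from 0.23 to 0.27, lowest 0.117). On average, 18 of 19 mice correlated best with mice of their own number in the other groups. The study's methods describe fed controls as littermates matched for sex and age, and do not explain the number. It was taken to pair the mice. Values and calls are from the fit without it unless a block is named, so the main fit leaves this pairing out. Its block is given where it changed a call among the 10 genes or a count of a pathway list. Where numbers in the titles differ from those in the file names (2 mice), the titles' numbers did not meet this in 2 of the comparisons. Replicates in a group differed by more than sampling noise (chi-square per degree of freedom of 17.9 or more in all 36 pairs). Alternatives were other filters, upper quartile scaling, DESeq2 (version 1.42.0), both blocks, sex, the other label of 1 mouse, only the compared groups, each mouse left out and, chosen after seeing the data, the 2 smallest libraries left out.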

Additional observations from a re-analysis of the deposited data

Results flagged for a closer look

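A value far from the rest of its group, by Dixon's Q on CPM, was found in 4 of the 40 sets of a gene and a group that were examined. About 1 in 20 sets would be flagged by chance if values were normally distributed and sets independent. The sets share libraries, so the count cannot be judged by that rate. All 4 flagged values came from NT+/+ Fast replicate 3. These were Fos at 92.0 CPM, Fosb at 9.62 CPM, Jun at 40.4 CPM and Dusp1 at 5.40 CPM. Without this mouse the NT+/+ Fast means were 21.3 ± 7.42 CPM for Fos, 1.94 ± 0.576 for Fosb, 28.6 ± 1.61 for Jun and 1.57 ± 0.44 for Dusp1 (SD, n = 4). Its total count was 19773367, the highest of its group (14588953 to 19773367), and its Nts was 5.45 CPM.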

How the results depend on the processing

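Junb, Dusp6 and Spry2 kept their direction with fasting in both genotypes under all 29 alternatives, and 0 called values changed sign. In NT-/- mice Junb, Dusp6 and Spry2 each passed in 28 of 29, with Spry2 lost when no filter for low counts was used (adjusted p = 0.0666) and the others lost without the fed mice named in the report. In NT+/+ mice Spry2 passed in 14 of 29 and in 7 of the 19 fits that left out 1 mouse. It was lost without any of the fed mice or NT+/+ Fast replicates 1, 3 and 5 (adjusted p from 0.0509 to 0.122), and Junb passed in 7 and Dusp6 in 6 of 29.

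The count of the 10 genes called with fasting in NT+/+ mice was 0 without the filter, 3 with DESeq2, 2 with a replicate block by the number of the titles, 3 with a replicate block by the number in the file names, 2 with sex as a covariate, 0 with the mouse of disagreeing labels grouped by its genotype label, 0 with only the compared groups in the fit, 3 without the 2 libraries of lowest totals, and 0 to 3 when each mouse was left out. The cause was not tested. Their median log2 fold change ranged from -0.16 to 0.22 when each mouse was left out, with -0.16 without NT+/+ Fast replicate 3. For the number in the file names, 1 gene passed without the filter (Fosb), beside 8.02% of all genes. With DESeq2's likelihood ratio test 1 passed (Ier2), beside 24.8% of all genes. When each mouse was left out 0 to 1 passed (Dusp1 without NT+/+ AL replicate 3, beside 20.4% of all genes). Neither block changed a call among the 10 apart from Dusp6 and, under file-name numbers only, Junb in NT+/+ mice. Sex could not be fitted together with the block, since sex is nested in the number. All genes called in NT+/+ fasting numbered 3862, and 5484 with the block by the number in the file names.

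Values that changed sign, all of them uncalled, follow on the log2 scale. With the mouse of disagreeing labels regrouped they were -0.028 for Ier2 and 0.13 for Dusp1 (fasting, NT+/+), 0.021 for Egr1 (fasting, NT-/-), 0.022 for Ier2 and 0.022 for Spry2 (genotype, fasted), and -0.087 for Atf3 and -0.024 for Dusp1 (difference between responses). With sex they were -0.013 for Fosb (fasting, NT-/-), 0.18 for Fosb, 0.023 for Jun, 0.0047 for Junb and 0.0054 for Dusp6 (genotype, fed), 0.014 for Jun (genotype, fasted), and -0.16 for Fosb and -0.063 for Atf3 (difference). With the block by the file-name number they were 0.22 for Fosb, 0.0015 for Jun, 0.033 for Junb and 0.0088 for Dusp6 (genotype, fed), 0.088 for Fos (genotype, fasted) and -0.0067 for Atf3 (difference). With the block by the titles they were 0.28 for Fosb and 0.0056 for Jun (genotype, fed), 0.054 for Fos (genotype, fasted) and -0.11 for Atf3 (difference). Without the 2 smallest libraries they were 0.079 for Egr1 (fasting, NT-/-), 0.16 for Fos, 0.033 for Ier2 and 0.084 for Spry2 (genotype, fasted) and 0.021 for Jun (difference), and with DESeq2 0.017 for Spry2 (genotype, fasted) and 0.0088 for Jun (difference).

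When each mouse was left out, the ranges that crossed 0 with fasting in NT+/+ were -0.59 to 0.66 for Fosb, -0.048 to 0.095 for Ier2 and -0.63 to 0.16 for Dusp1, and in NT-/- -0.11 to 0.79 for Fosb. Between fed genotypes they were -0.31 to 0.37 for Fosb, -0.18 to 0.15 for Jun, -0.087 to 0.021 for Junb, -0.13 to 0.24 for Dusp1 and -0.10 to 0.067 for Dusp6. Between fasted genotypes they were -0.35 to 0.62 for Fos, -0.40 to 1.07 for Fosb, -0.082 to 0.083 for Jun, -0.14 to 0.0033 for Ier2 and -0.057 to 0.060 for Spry2. For the difference between responses they were -0.61 to 0.35 for Fos, -0.38 to 1.096 for Fosb, -0.18 to 0.15 for Jun and -0.28 to 0.31 for Atf3. Depth limited Fosb and Dusp1 most, at as few as 14 and 17 counts in a mouse.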

Other observations

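The number in the file names, tested with group in the fit, was also read for the related gene lists. It passed for 7 of 20 other ERK output and feedback genes, 4 of 28 other immediate early genes, 4 of 30 cascade genes and 3 of 9 heat shock genes, beside 15.3% of all genes tested, so for the immediate early and cascade lists the share was close to that of all genes. Among the first were Ccnd1, the cyclin D1 gene (adjusted p = 0.00454), and Dusp7, which encodes an ERK phosphatase (adjusted p = 0.0125). Plk2 (adjusted p = 0.0132) and Myc (adjusted p = 0.0196) were among the immediate early genes. No label says what the number stands for, and a difference between the sexes cannot be told apart from one between numbers 3 and 5 and the rest.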
